A study of Rattus norvegicus with 4 samples.

Results

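The genes described here are 51 nucleolar, pre-rRNA processing, small nucleolar ribonucleoprotein (snoRNP), ribosome assembly and RNA polymerase I factors. They were chosen by gene symbol from their known roles, but with earlier results of these data known. The table holds 49 of them among 15172 genes, and all 49 were among the 13953 genes tested. Heatr1 and Mdn1 were not listed under these symbols, so their levels were not analysed, but their promoters were searched. The genes were read in INS-1 832/13 cells, a β-cell line that is 1 clone of a rat insulinoma. The cells were transfected for 36 h either with a non-targeting siRNA (siScramble, 2 samples, replicate numbers 2 and 3) or with a pool of siRNAs against Tbk1, which encodes TANK-binding kinase 1 (siTbk1, 2 samples, replicate numbers 2 and 3). Both groups were unselected cells of the same line, and knockdown came from a single siRNA pool. The comparison asks which transcripts differ in abundance when Tbk1 is knocked down. Nothing in the labels says that the samples came from separate cultures, so the p-values measure only the spread between these samples, which may be technical.

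Ribosome production begins in the nucleolus, where RNA polymerase I transcribes the precursor of the large ribosomal RNAs. Box C/D and box H/ACA snoRNPs modify this precursor, and assembly factors fold and cleave it into a small-subunit and a large-subunit particle that mature on the way to the cytoplasm. Myc is a transcription factor known to activate many genes of this pathway, often through the E-box motif, and the pathway as a whole is active in growing cells.

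Levels are given as counts per 1000000 (CPM), the count of a gene scaled to the size of its library after TMM normalization. CPM is a share of each library, so neither the amount of RNA per cell nor the number of ribosomes was measured, and in such bulk samples fewer cells of a kind cannot be told apart from less RNA per cell. Library totals lay between 38428926 and 47759013 estimated counts. At these depths 3 counts correspond to 0.0628 to 0.0781 CPM, and the lowest count of any of the 49 genes in any sample was 96. Tbk1 was at 53.7 and 52.5 CPM with siScramble and at 11.8 and 13.3 CPM with siTbk1 (log2 fold change −2.08 ± 0.076, SE, adjusted p = 3.7e-08 in edgeR's quasi-likelihood test, adjusted by the Benjamini-Hochberg procedure). Levels of islet markers moved with the groups. Unlike the other levels, these were scaled to the library total alone, without TMM, and whether each marker overlapped was judged on that scale. Ins1 was at 10512 and 11320.4 CPM with siScramble and at 7407 and 6132 CPM with siTbk1, and the α-cell hormone gene Gcg at 1406 and 1341 CPM and at 803 and 862 CPM. Of 8 β-cell markers, 4 (Ins1, Ins2, Pdx1 and Slc2a2) were lower in both siTbk1 samples than in both siScramble samples, 2 (Iapp and Nkx6-1) were higher and 2 (Neurod1 and Chga) overlapped. The summed level of the 8 was 18818 and 19879.9 CPM with siScramble and 15657 and 13986 CPM with siTbk1. Ins1 was the largest term of this sum in every sample, and most of the fall in the sum was its own. The part of the marker shift in the values of the ribosome biogenesis genes was not tested. Of the markers of other cell types, 8 (Sst, Ppy, Prss1, Cpa1, Krt19, Ptprc, Pecam1 and Col1a1) are not listed in the table.

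Among the 49 genes, 19 were lower with siTbk1 (38.8%, against 24.8% of all tested genes), 5 were higher (10.2%, against 24.4%) and 25 did not pass the test. A gene passed at an adjusted p under 0.05 in edgeR's quasi-likelihood test. The declines ran from 12.2% for Fbl, the snoRNP methyltransferase fibrillarin, to 60.2% for Dkc1, the pseudouridine synthase dyskerin. The rises were smaller and ran from 13.0% for Wdr75 to 25.0% for Nop16. The median log2 fold change over the 49 genes was −0.099, against 0.007 over all tested genes, and the middle of the 49 values, from the first to the third quartile, ran from −0.35 to 0.07. Together the 49 genes took 0.504% and 0.501% of all counts in the siScramble samples and 0.451% and 0.454% in the siTbk1 samples. The shares in both siTbk1 samples were below those in both siScramble samples.

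Few of these changes were large. With a fold change of at least 1.5 required as well, 4 genes were lower (8.16%, against 6.18% of all tested genes) and 0 were higher (against 4.81%). The 4 genes were Dkc1, Ebna1bp2, Ppan and Rrp9. With limma-voom 3 remained past both limits, since the log2 fold change of Rrp9 was −0.58 there. In 28 of the 49 genes both siTbk1 values lay below both siScramble values (57.1%, against 37.9% of all tested genes), in 13 both lay above (26.5%, against 38.7%), and in 8 the groups overlapped.

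**Figure D1:**
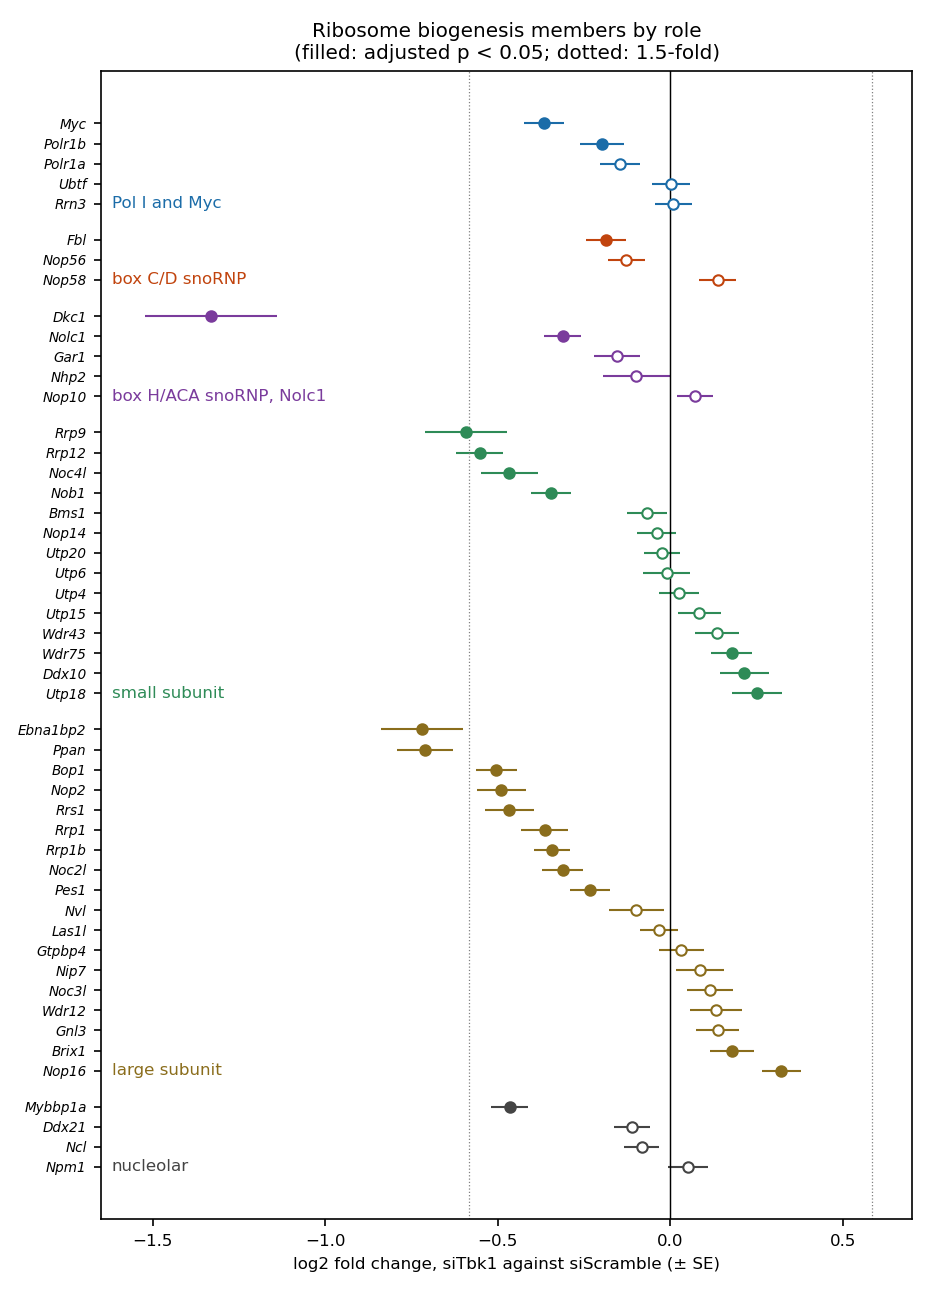
Log2 fold change of each of the 49 genes, siTbk1 against siScramble (x axis, bars ± SE, 2 samples per group), grouped by role, with filled points past the adjusted p limit of 0.05 and dotted lines at a fold change of 1.5. Dkc1 stands farthest to the left at −1.33, and the large-subunit group holds 9 of the 19 lower genes.

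Myc is known to bind the E-box CACGTG, so the promoters of the genes were searched for it. RefSeq promoters of the rat assembly GRCr8 run from 250 bases before to 50 after a gene's start, and 47 of the 51 genes had an entry. The motif is its own reverse complement, so both strands were searched at once. It was in 15 of the 47 promoters (31.9%), in 25 of 96 promoters of the other ribosome biogenesis genes (26.0%), in 5 of 50 promoters of the ribosomal protein genes (10.0%) and in 2148 of all 33469 promoters (6.42%). Among the 9077 tested genes that had 1 entry by symbol the share was 9.44%. Entries covered only part of the ribosomal protein genes and of the tested genes, so these shares are incomplete. Utp4, Utp20 and Gnl3 held the motif wholly before the start but did not pass the test, and their windows are not shown. The windows shown hold the motif wholly before the start in genes that passed the test. They are given 5′ to 3′ on the strand of the gene, with the E-box in capitals, and lie at chrX:157751440-157751499 (+) for Dkc1, chr20:10260537-10260579 (+) for Rrp1, chr14:83074269-83074328 (+) for Pes1, chr10:57555275-57555334 (+) for Mybbp1a, chr9:55395045-55395104 (+) for Wdr75 and chr10:79335815-79335874 (−) for Utp18.
Dkc1: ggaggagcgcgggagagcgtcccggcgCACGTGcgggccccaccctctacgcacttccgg
Rrp1: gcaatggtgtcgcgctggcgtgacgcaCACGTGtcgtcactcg
Pes1: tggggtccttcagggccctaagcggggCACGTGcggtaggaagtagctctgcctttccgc
Mybbp1a: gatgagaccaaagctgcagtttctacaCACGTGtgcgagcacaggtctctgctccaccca
Wdr75: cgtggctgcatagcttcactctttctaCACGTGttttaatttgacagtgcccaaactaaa
Utp18: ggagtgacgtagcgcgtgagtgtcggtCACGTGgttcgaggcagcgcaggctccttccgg

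The E-box lay 184 bases before the start in Dkc1, 16 in Rrp1, 50 in Pes1, 156 in Mybbp1a, 160 in Wdr75 and 90 in Utp18. The first 4 of these genes were lower with siTbk1 and the last 2 were higher. In Utp4, Utp20 and Gnl3, which did not pass, it lay 25, 127 and 25 bases before the start. In the positions listed for the counts Dkc1 lies on the − strand, while its promoter window lies on the + strand. Whether the counted row and this promoter belong to the same locus was not tested. Of the 14 tested genes with the motif, 8 were lower, 2 higher and 4 did not pass, with a median log2 fold change of −0.21, and of the 31 without it, 8 were lower, 3 higher and 20 did not pass, with a median of −0.07. Among all tested genes with 1 entry, 248 of 857 with the motif were lower and 204 higher (median −0.03), and 2161 of 8220 without it were lower and 2098 higher (median 0.01). Of the 4 genes lower by more than 1.5-fold, Dkc1 and Ebna1bp2 had an E-box in the promoter and Rrp9 and Ppan had none. In Ebna1bp2, Fbl, Rrp12 and Nop2, all lower, and in Noc3l, which did not pass, the E-box lay after the start. Mybbp1a and Utp18 each held a second E-box, 1 base before and 3 bases after the start. A match in these letters is a description of the sequence and not of binding.

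The RNA polymerase I group, with Myc, held 5 genes, of which 2 were lower and 3 did not pass. For this and every role group below, the shares over all tested genes were 24.8% lower and 24.4% higher. No group was tested against these shares, and so few genes do not separate a group from them. Where groups of samples are said not to overlap in a gene that passed, this describes the tested values and is no further support. Myc, which encodes the transcription factor, was at 85.0 and 89.1 CPM with siScramble and at 68.6 and 66.4 CPM with siTbk1. Both siTbk1 samples were below both siScramble samples, and Myc fell by 22.4% (log2 fold change −0.37 ± 0.058, SE, adjusted p = 0.00029 by edgeR's quasi-likelihood test). Polr1b, the second-largest subunit of the polymerase, was at 41.5 and 40.7 CPM with siScramble and at 36.8 and 34.8 CPM with siTbk1 (log2 fold change −0.20 ± 0.064, SE, adjusted p = 0.022 by edgeR). The groups did not overlap, and the decline was 12.8%.

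Polr1a, the largest subunit, was at 62.5 and 63.3 CPM with siScramble and at 57.5 and 56.2 CPM with siTbk1. Its groups did not overlap either, but the log2 fold change of −0.15 ± 0.058 (SE) stayed just outside the limit (adjusted p = 0.054 by edgeR). Rrn3, the TIF-IA factor that brings the polymerase to the promoter, was at 193 and 184 CPM with siScramble and at 185 and 195 CPM with siTbk1. Ubtf, the architectural factor of active ribosomal RNA genes, was at 128 and 135 CPM with siScramble and at 134 and 130 CPM with siTbk1. For both genes the groups overlapped, with log2 fold changes of 0.01 ± 0.054 (SE) and 0.00 ± 0.054 (SE).

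Other genes were taken from a list of 12 further polymerase I subunits and associated factors, Ttf1 and Tcof1 among them. Of these 12, 6 were lower, Tcof1 included, and 1 was higher, against 24.8% and 24.4% of all tested genes. The higher gene was Polr1f, a subunit listed in the table under its older symbol Twistnb. It was at 21.0 and 20.0 CPM with siScramble and at 41.6 and 43.6 CPM with siTbk1, a log2 fold change of 1.05 ± 0.069 (SE, adjusted p = 7.9e-07 by edgeR). This gene alone, of all ribosome biogenesis genes examined, rose by 1.5-fold or more. Taf1c, a subunit of the promoter-binding factor SL1, was at 4.39 and 4.34 CPM with siScramble and at 2.78 and 2.23 CPM with siTbk1. It fell by 42.2% (adjusted p = 0.0013 by edgeR), with both siTbk1 samples below both siScramble samples.

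Of the 3 box C/D snoRNP proteins, which carry out ribose methylation, 1 was lower and 2 did not pass. Fbl, the methyltransferase, was at 133 and 144 CPM with siScramble and at 124 and 120 CPM with siTbk1 (log2 fold change −0.19 ± 0.058, SE, adjusted p = 0.017 by edgeR). The groups did not overlap, and the gap between the nearest samples was smaller than that between the siScramble samples. The scaffold proteins Nop56 and Nop58 had log2 fold changes of −0.13 ± 0.053 (SE) and 0.14 ± 0.055 (SE), with adjusted p of 0.063 and 0.055 by edgeR. Fbl overlaps its neighbour Dyrk1b on the same strand by 374 bases in the positions listed, so reads there could be counted for either gene.

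Of the 5 genes of the box H/ACA group, 2 were lower and 3 did not pass, against 24.8% lower over all tested genes. Dkc1, the catalytic subunit for pseudouridylation and also a component of telomerase, whose promoter window with an E-box is given above, was at 6.16 and 9.04 CPM with siScramble and at 3.40 and 2.54 CPM with siTbk1. Both siTbk1 samples were below both siScramble samples, which themselves differed more, relative to their mean, than those of any other of the 19 lower genes (log2 fold change −1.33 ± 0.19, SE, adjusted p = 0.00015 by edgeR). Its counts were 296 and 358 with siScramble and 160 and 96 with siTbk1. With 1 sample left out in turn its log2 fold change lay between −1.59 and −1.04.

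Nolc1, a nucleolar chaperone of snoRNPs, was at 373 and 388 CPM with siScramble and at 314 and 299 CPM with siTbk1 (log2 fold change −0.31 ± 0.052, SE, adjusted p = 0.00043 by edgeR). The siTbk1 samples were clearly apart from the siScramble samples. The partners of dyskerin in the complex did not pass the test. Gar1 had a log2 fold change of −0.16 ± 0.067 (SE), Nhp2 of −0.10 ± 0.097 (SE) and Nop10 of 0.07 ± 0.053 (SE). Of 9 further snoRNP genes tested, 2 were lower and 0 higher at the adjusted p limit of edgeR, against 24.8% and 24.4% of all tested genes. The 2 were Ruvbl1 and Ruvbl2, the ATPases that help assemble snoRNPs.

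**Figure D2:**
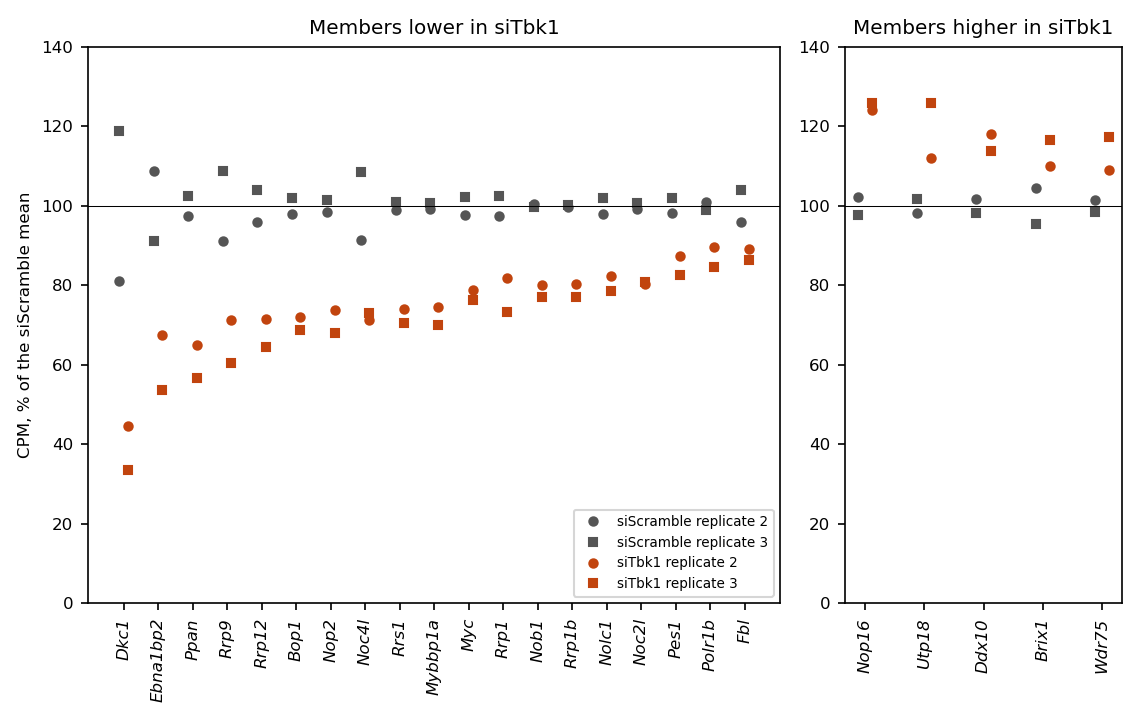
CPM of the 24 genes past the adjusted p limit in each of the 4 samples, as a percentage of the gene's siScramble mean (y axis from 0), with grey points for siScramble and orange points for siTbk1. Every orange point in the left panel lies below both grey points of its gene, and every orange point in the right panel lies above them. The genes were chosen by the test on these same samples, so the separation adds no support to it.

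Among the 14 small-subunit factors tested, 4 were lower, 3 were higher and 7 did not pass, with a median log2 fold change of −0.018. These counts were near the shares over all tested genes, 24.8% lower and 24.4% higher. Rrp9, a U3 snoRNP protein, was at 10.7 and 12.8 CPM with siScramble and at 8.38 and 7.10 CPM with siTbk1 (log2 fold change −0.59 ± 0.12, SE, adjusted p = 0.0014 by edgeR). Rrp12, a nuclear export and maturation factor, was at 84.3 and 91.3 CPM with siScramble and at 62.9 and 56.6 CPM with siTbk1 (log2 fold change −0.55 ± 0.068, SE, adjusted p = 5.6e-05 by edgeR). For both genes the siTbk1 samples were the 2 lowest. The other lower genes were Noc4l, a partner of Nop14 in the nascent particle, which fell by 27.7%, and Nob1, the endonuclease that makes the final cleavage of the 18S rRNA, which fell by 21.3%.

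The 3 higher genes were Utp18, Ddx10 and Wdr75. Utp18, a component of the early particle on the nascent transcript, was at 31.0 and 32.2 CPM with siScramble and at 35.4 and 39.8 CPM with siTbk1 (log2 fold change 0.25 ± 0.073, SE, adjusted p = 0.013 by edgeR). Ddx10, an RNA helicase, was at 22.4 and 21.6 CPM with siScramble and at 26.0 and 25.0 CPM with siTbk1 (log2 fold change 0.21 ± 0.071, SE, adjusted p = 0.026 by edgeR). In both genes the siTbk1 samples were the higher ones, without overlap. Wdr75, a factor of the t-UTP subcomplex, rose by 13.0% (adjusted p = 0.027 by edgeR). In its case too the groups did not overlap.

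The 7 small-subunit factors that did not pass were Wdr43, Utp4, Utp6, Utp15, Utp20, Bms1 and Nop14. Their log2 fold changes lay between −0.07 for Bms1, a GTPase, and 0.13 for Wdr43, another t-UTP factor. In the listed positions Wdr43 lies wholly within the span of an uncharacterized gene on the opposite strand, with which it shares 39639 bases, and whether the counting used strand is not stated. Of 40 further small-subunit genes, 13 were lower and 8 higher, against 24.8% and 24.4% of all tested genes. The lower ones included Wdr46, a scaffold of the small-subunit particle, at 38.9 and 40.1 CPM with siScramble and 25.0 and 22.9 CPM with siTbk1, and Ddx49, an RNA helicase, at 25.5 and 27.9 CPM and 18.5 and 16.0 CPM. Wdr46 fell by 39.2% (adjusted p = 1.2e-05) and Ddx49 by 35.2% (adjusted p = 0.00011, both by edgeR), and neither had overlapping groups.

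The large-subunit group was the largest, and 9 of its 18 tested genes were lower, 2 were higher and 7 did not pass. Over all tested genes 24.8% were lower and 24.4% higher. The median log2 fold change of the group was −0.17. Ebna1bp2, the mammalian counterpart of the assembly factor Ebp2, was at 18.0 and 15.1 CPM with siScramble and at 11.2 and 8.88 CPM with siTbk1 (log2 fold change −0.72 ± 0.12, SE, adjusted p = 0.0004 by edgeR). Ppan, the counterpart of yeast Ssf1, was at 27.1 and 28.6 CPM with siScramble and at 18.1 and 15.8 CPM with siTbk1 (log2 fold change −0.71 ± 0.082, SE, adjusted p = 3.9e-05 by edgeR). In both, the siTbk1 samples lay well below the siScramble samples, and the same held for Nle1, a large-subunit factor of the wider list, which fell by 40.6% from 15.9 and 17.2 CPM to 10.3 and 9.38 CPM (adjusted p = 5.6e-05 by edgeR).

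The PeBoW complex, which is needed for maturation of the 28S and 5.8S rRNAs, joins Pes1, Bop1 and Wdr12. Bop1 fell by 29.5% (log2 fold change −0.50 ± 0.059, SE, adjusted p = 4.3e-05 by edgeR) and Pes1 by 14.9% (log2 fold change −0.23 ± 0.057, SE, adjusted p = 0.0049 by edgeR). Wdr12, at 20.1 and 18.9 CPM with siScramble and at 21.2 and 21.6 CPM with siTbk1, did not pass (log2 fold change 0.13 ± 0.075, SE, adjusted p = 0.16 by edgeR). The 3 genes of 1 complex thus had values of both signs. Whether they differ from each other was not tested.

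The other lower large-subunit genes were Nop2, a 28S rRNA methyltransferase, which fell by 28.8%, Rrs1, which works in 5S RNP incorporation and fell by 27.6%, and Rrp1 and its paralog Rrp1b, which fell by 22.3% and 21.2%. Noc2l, a nucleolar protein that also binds histones, fell by 19.5%. Its log2 fold change was −0.31 ± 0.06 (SE), against 0.11 ± 0.067 (SE) for Noc3l, its partner in the assembling particle, which did not pass.

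The 2 higher large-subunit genes were the assembly factors Nop16 and Brix1. Nop16 was at 75.1 and 71.8 CPM with siScramble and at 91.1 and 92.5 CPM with siTbk1 (log2 fold change 0.32 ± 0.056, SE, adjusted p = 0.00058 by edgeR). Brix1 was at 74.4 and 68.1 CPM with siScramble and at 78.4 and 83.0 CPM with siTbk1 (log2 fold change 0.18 ± 0.063, SE, adjusted p = 0.034 by edgeR). The groups did not overlap in either gene, though for Brix1 the nearest samples were closer together than the siScramble samples were. The remaining large-subunit factors, Gnl3, Gtpbp4, Nip7, Nvl and Las1l with Wdr12 and Noc3l above, had log2 fold changes between −0.10 and 0.14. Of 38 further large-subunit genes, 15 were lower and 4 higher. A list of 15 genes held the exosome, which trims and degrades rRNA precursors, its cofactors and other rRNA-related factors such as Xrn2 and Rrp8. Of these 15, 3 were lower and 7 higher, Xrn2 among the higher ones. Both lists stand against 24.8% lower and 24.4% higher over all tested genes.

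The last group held 4 abundant nucleolar proteins, of which 1 was lower and 3 did not pass. Mybbp1a, a Myb-binding nucleolar protein with a role in rRNA transcription and processing, was at 312 and 317 CPM with siScramble and at 235 and 221 CPM with siTbk1. It fell by 27.6% (log2 fold change −0.47 ± 0.053, SE, adjusted p = 3.5e-05 by edgeR), with no overlap. It overlaps Spns2 on the opposite strand by 477 bases in the listed positions, as Bop1 does Mroh1 by 81 bases.

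Npm1, nucleophosmin, was at 710 and 659 CPM with siScramble and at 687 and 732 CPM with siTbk1, and its groups overlapped (log2 fold change 0.05 ± 0.057, SE). Ncl, nucleolin, was at 331 and 319 CPM with siScramble and at 302 and 312 CPM with siTbk1 (log2 fold change −0.08 ± 0.051, SE, adjusted p = 0.2 by edgeR). The siTbk1 samples were the lower ones for Ncl, but the difference did not pass the test. Ddx21, a nucleolar RNA helicase, had a log2 fold change of −0.11 ± 0.051 (SE) and did not pass.

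**Figure D3:**
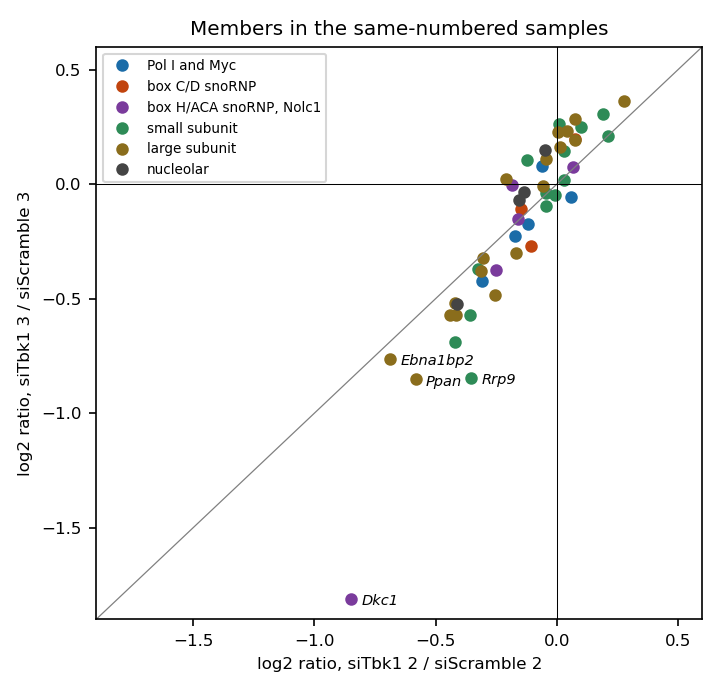
Log2 ratio of siTbk1 to siScramble for the samples numbered 2 (x axis) and for those numbered 3 (y axis), 1 point per gene, coloured by role, with the line of equal ratios. Of the 49 genes 29 were below 0 and 14 above 0 in both, and Dkc1 was the most negative in both at −0.85 and −1.81. The samples are matched by number alone and were not taken as pairs.

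Within the same-numbered samples, 29 genes were lower in both (59.2%, against 40.9% of all tested genes), 14 were higher in both (28.6%, against 42.0%) and 6 had mixed signs (12.2%, against 17.1%). The samples are matched here by number alone. Same-numbered samples did not deviate together, so the numbers were not taken as pairs in the fit. The median log2 ratio was −0.12 between the samples numbered 2 and −0.06 between those numbered 3. The 5 rises were the less stable calls. Each gene was read under 15 or 16 alternative settings of the fit. Among these, the setting that leaves out genes with fractional counts reused the main fit and could not change a call. Nop16 passed under all 16, while Ddx10 lost its call in 8, Wdr75 in 6, Brix1 in 5 and Utp18 in 1. Of the 19 falls, Fbl and Polr1b lost theirs in 4 and Pes1 in 1, and the other 16 genes kept theirs in all of those settings. Some of these settings leave 1 sample in a group, and in each of those fewer of all tested genes passed than in the main fit.

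Beside related gene groups, the 49 genes had a median change between that of the rest of the pathway and that of the ribosomal protein genes. Of 114 other ribosome biogenesis genes tested, 39 were lower and 20 higher, with a median log2 fold change of −0.05. Of the 64 cytosolic ribosomal protein genes, 35 were lower and 3 higher, with a median of −0.18. For both lists the shares over all tested genes were 24.8% lower and 24.4% higher, with a median of 0.007. Counts more than 0.01 from a whole number occurred in 60 of the ribosomal protein genes, in 17 of the 49 and in 3690 of all tested genes. With those 17 left out, the median of the remaining genes was −0.15. No test was made between the lists.

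**Figure D4:**
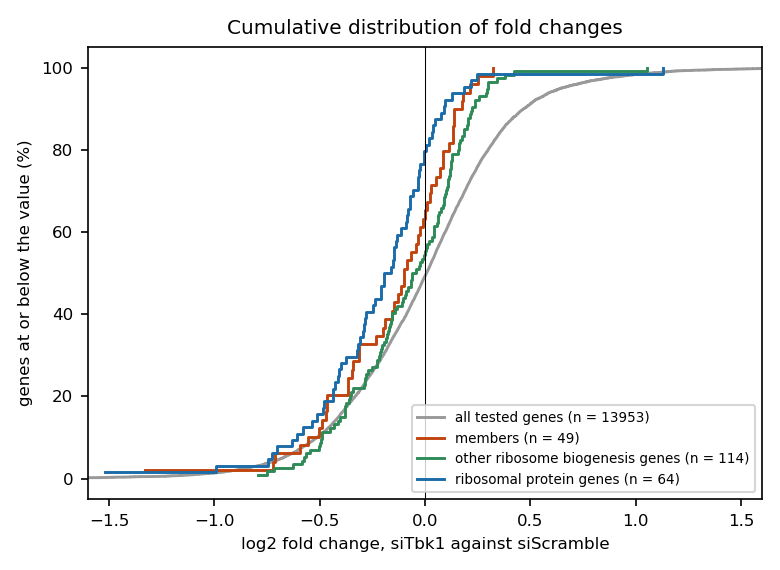
Cumulative distribution of the log2 fold change, siTbk1 against siScramble, as the percentage of genes at or below each value, for all tested genes (n = 13953), the 49 genes, 114 other ribosome biogenesis genes and 64 ribosomal protein genes. The 49 genes pass the middle of their distribution at −0.099, left of all tested genes at 0.007 and right of the ribosomal protein genes at −0.18.

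Gene span moved with the result. The span, from the first to the last listed base and introns included, had a median of 11.3 kb in the 19 lower genes and 25.5 kb in the 5 higher ones, and the corresponding medians over all tested genes were 13.8 kb for lower and 33.9 kb for higher genes. Spearman's rho between span and log2 fold change was 0.30 across the 49 genes and 0.21 across all tested genes. These are correlations across genes of the same 4 libraries, and genes are not independent replicates. After removal of the trend on span in each library, the median of the 49 genes was −0.06.

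**Figure D5:**
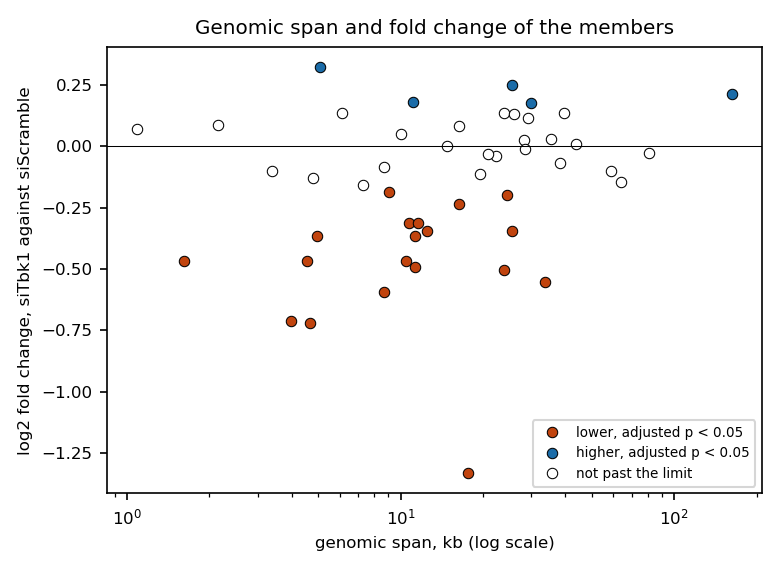
Log2 fold change, siTbk1 against siScramble (y axis), against genomic span in kb (x axis, log scale) for the 49 genes, with filled points past the adjusted p limit. The lower genes have a median span of 11.3 kb and the higher genes one of 25.5 kb, and the widest gene, Ddx10 at 163 kb, is among the higher ones.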

How the data were processed

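RNA sequencing of INS-1 832/13 cells gave 4 samples, 2 per group, from stranded mRNA libraries. The authors deposited estimated counts per gene, not scaled between samples. The submitters' processing notes name STAR 2.6.1d, Partek and the genome build rn6. Which tool counted the reads, and whether by strand, is not given in the sources used here. The table also holds fractional counts, which were rounded to whole numbers.

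Genes were filtered with filterByExpr at a minimum count of 10, which removed 1219 genes, scaled by TMM and compared by the quasi-likelihood test of edgeR 4.0.16 in R 4.3.3 with Benjamini-Hochberg adjustment over all tested genes. The limits were an adjusted p of 0.05 and, where stated, a fold change of 1.5. SE is that of the log2 fold change. The fit was tested on simulated data. Alternatives included DESeq2 1.42.0 and limma 3.58.1.

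Members and lists were chosen with earlier results of these data known. Values in all samples are given for members past both limits, for the 2 largest changes in each direction per role, and for Polr1a, Polr1b, Rrn3, Ubtf, Myc, Npm1, Ncl and Fbl. Of the other ribosome biogenesis genes those past both limits are named, at most 6 in each direction, and of the Myc network those past the adjusted p limit. The remaining names were added after their values were seen. Promoters were matched by symbol to RefSeq entries on GRCr8, a later build than that of the table. Protein levels were not analysed here.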

Additional observations from a re-analysis of the deposited data

How the results depend on the processing

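The 5 higher and 19 lower genes became 2 higher and 18 lower with the replicate block, where 23.2% of all tested genes were lower and 22.2% higher. The calls of Brix1, Ddx10, Wdr75 and Polr1b were lost there. DESeq2 gave 3 higher and 19 lower, where 19.4% of its 15172 genes were lower and 17.9% higher. Scaling by library size alone gave 2 higher and 24 lower, where 28.6% of all tested genes were lower and 20.2% higher. Fits with 1 sample left out leave 1 sample in a group, so their calls are not counted by direction. Of the 4 genes lower by 1.5-fold, 1 was left when edgeR's glmTreat tested against that fold, where 0.724% of all tested genes were lower. The median of −0.099 was −0.146 with library size alone, which moved the median of all tested genes to −0.040, −0.062 after removal of the trend on gene span, with and without the replicate block, −0.151 without genes with fractional counts, and between −0.118 and −0.050 with 1 sample left out (−0.050 without siScramble replicate 2). The same-numbered samples did not deviate together (Pearson's r 0.0041, Spearman's rho −0.20 over all tested genes), so the numbers were not taken as pairs. A crossed pairing, chosen after seeing the data, gave 8 higher, where 27.3% of all tested genes were higher. The other ribosome biogenesis genes were 14 higher and 36 lower with the replicate block. None of the 24 genes past the adjusted p limit changed direction under the alternatives run, while 8 of the 25 that did not pass (Gtpbp4, Ncl, Nhp2, Npm1, Rrn3, Ubtf, Utp4 and Utp6) had values of both signs. With 2 samples per group, the smallest change past the limit among the 49 genes was 12.2%. The causes were not tested.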

Other observations

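Myc works as a dimer with Max, and related proteins compete for that partner or bind E-boxes with the partner Mlx. Of 11 other genes of this network tested, 3 were lower and 5 higher with siTbk1, with a median log2 fold change of 0.20. Over all tested genes 24.8% were lower and 24.4% higher, and so few genes do not separate the network from that share. Mlxipl, also on the list, was not in the table. Max, the obligate partner, was at 31.4 and 32.6 CPM with siScramble and at 25.5 and 24.7 CPM with siTbk1 (log2 fold change −0.35 ± 0.068, SE, adjusted p = 0.0011 by edgeR). Like Myc itself it was lower in both siTbk1 samples. Mlxip, a glucose-responsive partner of Mlx, fell by 32.0% (adjusted p = 0.00011 by edgeR), and Mxd3, a repressor that pairs with Max, fell by 24.7% (adjusted p = 0.00021 by edgeR).

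The higher genes of the network included repressors of Myc targets and a Myc paralog. Mxd4 rose by 27.9% (adjusted p = 0.00032) and Mxi1 by 19.6% (adjusted p = 0.0033, both by edgeR), and both encode repressors that pair with Max. Mga, a repressor that also pairs with Max, was at 94.8 and 89.5 CPM with siScramble and at 119 CPM in both siTbk1 samples (adjusted p = 0.00022 by edgeR). Mycl, the paralog, was at 27.1 and 27.0 CPM with siScramble and at 34.9 and 32.7 CPM with siTbk1 (adjusted p = 0.0018 by edgeR). Mlx was at 153 and 154 CPM with siScramble and at 194 and 207 CPM with siTbk1 (adjusted p = 0.00013 by edgeR). For all 5 genes both siTbk1 samples lay above both siScramble samples. They were picked by the test on the same samples, so this adds no support to it.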
